A study of Mus musculus with 30 samples.

Results

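Of 32277 regions that carried a peak of trimethylated histone H3 lysine 4 (H3K4me3) in both lists without knock-down, 4768 (14.8%) were 1000 bp or narrower and overlapped no peak of 6 polycomb lists without knock-down. These narrow polycomb-free regions were chosen by merging the peaks of the 2 H3K4me3 lists, keeping merged intervals that held a peak of both, and removing those that shared 1 bp or more with a peak of EPOP (2 lists), Suz12 (2 lists), Jarid2 or H3K27me3. They made up 22.5% of the 21210 polycomb-free H3K4me3 regions and 88.5% of the 5386 H3K4me3 regions of 1000 bp or less. The other classes were 16442 wider polycomb-free regions, 618 narrow regions that overlapped polycomb, and 10449 wider regions that did so. Width, presence in both H3K4me3 lists and absence of polycomb peaks without knock-down were set by the choice and are given as description.

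All samples analysed here were E14Tg2A cells, a mouse embryonic stem cell line, grown without feeders in serum and leukemia inhibitory factor. They were measured by chromatin immunoprecipitation and sequencing (ChIP-seq). EPOP (C17orf96) was depleted with a lentiviral short hairpin RNA, and Elongin B (EloB) with small interfering RNA; the cells without knock-down had a control hairpin or a control small interfering RNA as far as the file headers name one. For H3K4me3 and for Suz12 there were 2 control lists and 1 list from each depletion. EPOP and EloB were profiled by 2 control lists and 2 lists from EPOP-depleted cells, Jarid2 and H3K27me3 by 1 list of each kind. Per the file headers, control replicate 1 of H3K4me3 belongs to the hairpin method used for EPOP, and control replicate 2 to the small interfering RNA method used for EloB. Whether replicates came from separate cultures is not stated in the labels, so p-values measure only the spread between these samples, which may be technical. The description of EPOP knock-down replicate 1 names IgG where its title and antibody name EPOP, so the title was followed. Peaks were not tied to genes here, so the cell line was not checked against marker genes.

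H3K4me3 is deposited at promoters by SET1 and MLL family methyltransferases, which are drawn to unmethylated CpG islands and to transcribing RNA polymerase. Most active promoters in embryonic stem cells carry a domain wider than a single nucleosome. Polycomb repressive complex 2 (PRC2), with the core subunit Suz12 and the accessory subunits Jarid2 and EPOP, deposits H3K27me3, and many CpG-island promoters of developmental genes in these cells carry both marks. EloB is a subunit of elongin, a complex named for its effect on transcription elongation, and EPOP is known to bind it.

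The narrow polycomb-free regions had low peak scores, as narrow regions did in general. Their width ran from 263 to 1000 bp with a median of 792 bp. Their median peak score, the authors' own value for each peak with a minimum of 50 in every list, was 85.9 in control replicate 1, with 5% of regions below 52.8 and 5% above 233. It was 127 in control replicate 2, with the corresponding limits at 58.0 and 344. Narrow polycomb-overlapping regions had medians of 108 and 176 in the same lists, and wider polycomb-free regions 501 and 934. The lower of a region's 2 control scores, used below as its rank, had a median of 80.6 over the narrow polycomb-free regions. The list after EPOP depletion gave a median score of 116 over the 3927 regions that had a peak there, and the list after EloB depletion 171 over 4517. Scores were not compared between lists as a level, since no source used here defines them and list lengths differed.

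**Figure D1:**
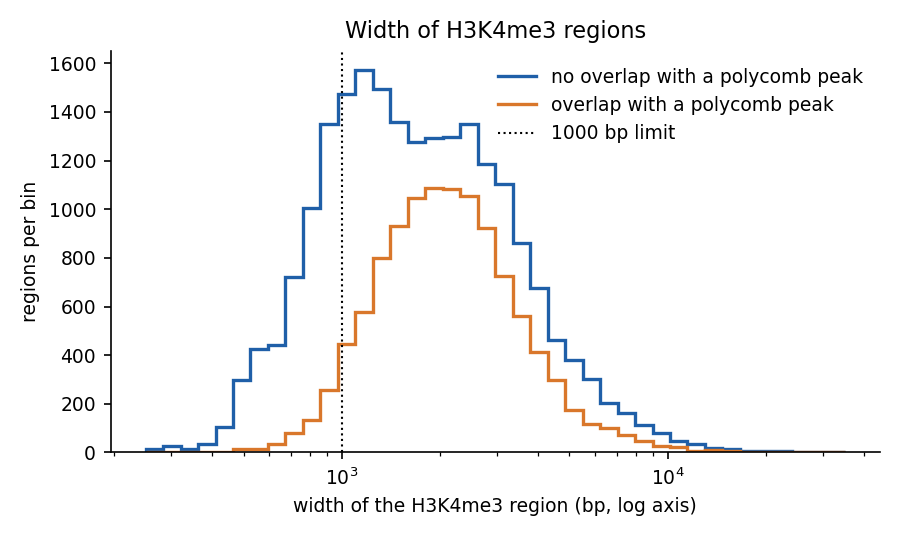
Number of H3K4me3 regions (y axis) by width in bp (x axis, log scale) in bins of equal log width, for regions without and with overlap with a polycomb peak of the lists without knock-down; the dotted line marks 1000 bp. Below the line most regions are polycomb-free, and polycomb-overlapping regions are most frequent near 2000 bp.

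The share of H3K4me3 regions free of polycomb was highest among the narrowest. It was 95.1% of 81 regions up to 400 bp, 96.5% of 915 between 401 and 600 bp, 90.5% between 601 and 800 bp and 84.4% between 801 and 1000 bp. Beyond the width limit it went down to 74.8% between 1001 and 1200 bp and to 55.3% between 1501 and 2000 bp, and was 63.5% above 3000 bp. The plot of region widths shows both classes. A wider region has more base pairs in which to meet a polycomb peak, and the part of that in the shares was not tested. At the limit itself the values were close: the 603 polycomb-free regions of 951 to 1000 bp had a median lower score of 99.4, and the 595 regions of 1001 to 1050 bp one of 116.

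Among the narrow regions a few had scores above the median of the wider ones. The highest was chromosome 1, 161161645 to 161162595 (mm9), 951 bp wide, with scores of 2218 and 2325 without knock-down, 2268 after EPOP depletion and 2245 after EloB depletion. It lay 241 bp from the next H3K4me3 region, and all 4 scores were far above the class medians. It also had a Suz12 peak after EPOP depletion, with a score of 53.55. The region at chromosome 12, 20926322 to 20927234, had scores of 1442 and 1186 without knock-down, 1386 after EPOP depletion and 1463 after EloB depletion, and its next H3K4me3 region was 69247 bp away. The region at chromosome 8, 20019689 to 20020567, scored 1140 and 1183 without knock-down, 1039 after EPOP depletion and 1179 after EloB depletion, at a distance of 126447 bp from the next. Such regions were rare, since 27 of the 4768 had a lower score of 500 or more.

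The first comparison asked whether H3K4me3 at the narrow polycomb-free regions was still called when EPOP or EloB was depleted. Upon EPOP knock-down 3927 of 4768 regions (82.4%, Wilson 95% interval 81.3 to 83.4) overlapped an H3K4me3 peak and 841 did not. Over all 32277 H3K4me3 regions 3.86% had no peak after EPOP depletion. Upon EloB knock-down 4517 regions (94.7%, 94.1 to 95.3) overlapped a peak and 251 did not, beside 1.03% without a peak over all regions. Wider polycomb-free regions had a peak in 98.1% and 99.6%, and narrow polycomb-overlapping regions in 90.1% and 97.7%. Next to the width limit the classes did not differ in this way. After EPOP depletion 95.5% of polycomb-free regions of 951 to 1000 bp had a peak, beside 93.4% of those of 1001 to 1050 bp. After EloB depletion the shares were 98.2% and 98.3%. The 2 knock-downs were compared with the same control lists, and each had 1 list, so no test across samples was possible. Wilson intervals here cover counting of regions only, not the difference between cultures.

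The knock-down lists differed in length, with 39967 H3K4me3 peaks after EPOP depletion and 47296 after EloB depletion, beside 35027 and 42857 without knock-down. When every list was cut to its 35027 highest-scoring peaks, 3412 narrow polycomb-free regions remained. Of these, 77.6% had a peak after EPOP depletion and 80.3% after EloB depletion, so the gap between the knock-downs narrowed from 12.4 to 2.70 percentage points. The cut lists still left narrow regions less often called than wide ones, of which 96.6% and 97.9% had a peak.

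The regions without a peak upon knock-down had lower scores without it than the kept regions, by median, although most regions of low score kept their peak. The 841 regions missing after EPOP depletion had a median lower score of 62.7, a median width of 664 bp and a median distance of 33370 bp to the next H3K4me3 region. Those kept had 87.4, 814 bp and 15128 bp. In the missing group 94.6% had a lower score under 100, beside 60.4% of the kept, and the highest was 179. The 251 regions missing after EloB depletion had a median lower score of 60.5, beside 82.2 for the kept, and 97.2% were under 100, beside 64.7%.

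**Figure D2:**
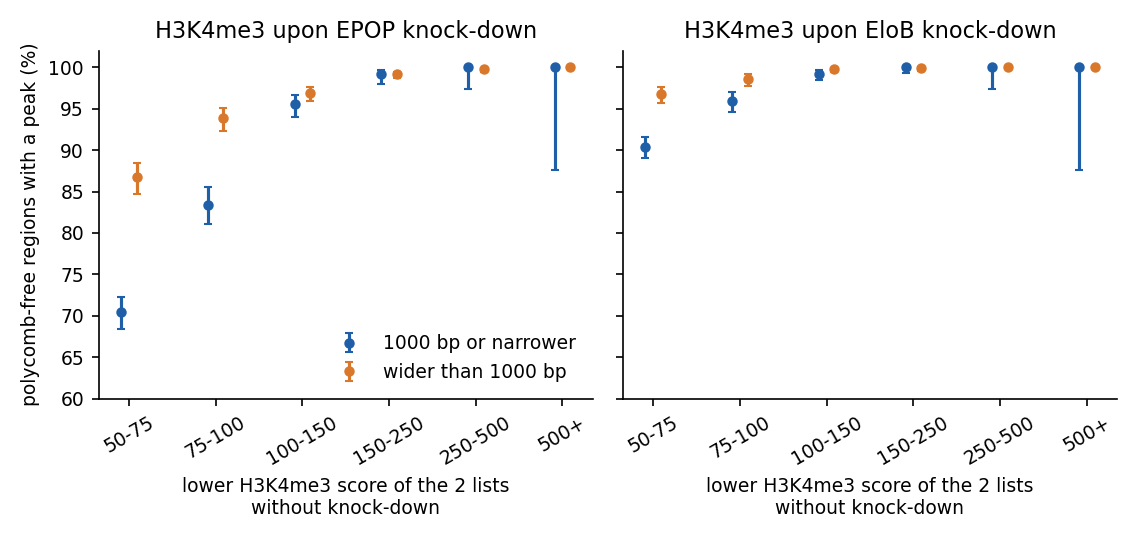
Percentage of polycomb-free H3K4me3 regions with a peak after EPOP depletion (left) and EloB knock-down (right), by the lower of their 2 scores without knock-down, for regions up to 1000 bp and wider ones; bars are Wilson 95% intervals over regions, and the y axis starts at 60%. Narrow regions lie below wide ones in the 2 lowest score bins, and both classes are near 100% from a score of 150.

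At equal score the difference from wide regions was small above the lowest bins. Between scores of 50 and 75, which held 2081 narrow polycomb-free regions, 70.4% had a peak after EPOP depletion, beside 86.7% of wider polycomb-free regions in that bin. Between 75 and 100 the shares were 83.4% and 93.9%, and between 100 and 150 they were 95.5% and 96.9%. From 150 to 250 both were 99.2%. Upon EloB knock-down the lowest bin had 90.4% of narrow and 96.8% of wide regions, and from 150 to 250 100% and 99.9%. A wider region also has more base pairs in which to meet a knock-down peak, and the part of that in these shares was not tested. The plot of kept regions by score gives all bins. Within the narrow class, width went the same way from 401 bp on. After EPOP depletion 65.0% of the 883 polycomb-free regions of 401 to 600 bp had a peak, with a median lower score of 70.4. Of the 2296 of 801 to 1000 bp it was 90.6%, with a median of 90.8. The 77 regions up to 400 bp broke this order, with a median lower score of 80.8. Of these, 66.2% had a peak after EPOP depletion and 81.8% after EloB depletion, beside 90.7% after EloB depletion at 401 to 600 bp.

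A few regions with moderate scores had no peak in one knock-down list. The region at chromosome X, 130515644 to 130516551, scored 179 and 215 without knock-down and 432 after EloB depletion, and had no peak after EPOP depletion. The region at chromosome 11, 110215446 to 110216322, scored 208 and 178 without knock-down and 186 after EloB depletion. It also had no peak after EPOP depletion. The region at chromosome 1, 154138053 to 154139048, scored 170 and 337 without knock-down and 437 after EloB depletion, again with no peak after EPOP depletion. In the other direction, chromosome 10, 88084784 to 88085630, scored 131 and 133 without knock-down and 66.4 after EPOP depletion, and had no peak after EloB depletion. The region at chromosome 19, 40199780 to 40200634, scored 116 and 259 without knock-down and was without a peak in both knock-down lists. With 1 list per knock-down, none of these single regions could be tested.

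Because the choice required a peak in both control lists, the agreement between lists without knock-down cannot be read from it. Narrow polycomb-free peaks were therefore taken from 1 H3K4me3 list alone and looked for in the other 3. Of the 9157 such peaks of control replicate 1, 89.9% were found in control replicate 2, 83.0% after EPOP depletion and 92.9% after EloB depletion. Of the 12027 of control replicate 2, 45.3% were found in control replicate 1, 59.6% after EPOP depletion and 83.8% after EloB depletion. For every list taken as the source, the share found rose with the length of the list searched. Peaks of control replicate 2 were found less often in the other control than in either knock-down list.

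With all 4 lists cut to 35027 peaks the 12 shares lay between 65.6% and 73.2%. Peaks of control replicate 1 were found in control replicate 2 in 73.2%, after EPOP depletion in 70.7% and after EloB depletion in 71.6%. Peaks of control replicate 2 were found in control replicate 1 in 68.6%, after EPOP depletion in 65.6% and after EloB depletion in 71.9%. The share found after EPOP depletion was thus 2.57 and 3.02 percentage points below that between the controls, and the share after EloB depletion lay below it in one case and above it in the other. The plot of peaks found in other lists shows both settings.

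**Figure D3:**
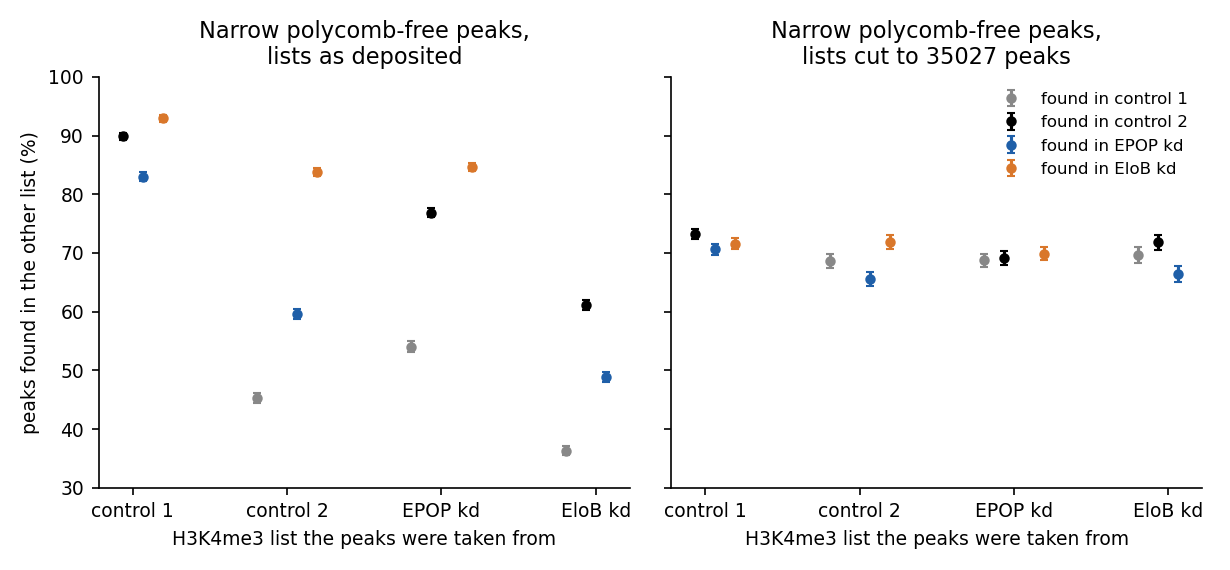
Percentage of narrow polycomb-free H3K4me3 peaks of 1 list (x axis) that overlapped a peak of each other list (colours), with all deposited peaks (left) and with each list cut to its 35027 highest-scoring peaks (right); bars are Wilson 95% intervals over peaks, and the y axis starts at 30%. The shares span 36.3% to 92.9% on the left and 65.6% to 73.2% on the right.

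Peak midpoints within the regions are given as description, since the choice of narrow regions with overlapping peaks limits how far they can move. Over 3776 narrow polycomb-free regions with exactly 1 peak in each list, the peak midpoint moved by a median of 38 bp between the 2 control lists. Between a control and the EPOP knock-down list the median was 42 or 41 bp, and between a control and the EloB knock-down list 46.5 or 42.5 bp. The midpoints lay within 100 bp of each other in 89.4% of these regions between the controls, and in 81.1% between the 2 knock-down lists, the lowest share of the 6 pairs. Few regions had been joined to a neighbour: 46 of the 3927 kept after EPOP depletion and 82 of the 4517 kept after EloB depletion shared a peak with another H3K4me3 region. Most also stayed narrow, with 87.0% of the kept regions still covered by 1000 bp or less after EPOP depletion and 79.8% after EloB depletion.

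Widths were compared with a control list that had not been used to choose the peaks, since a list used for the choice holds narrow peaks by construction. For 4541 narrow polycomb-free peaks chosen in control replicate 2, the median log2 ratio of width after EPOP depletion to width in control replicate 1 was 0.12 (95% interval of the median 0.11 to 0.13). Over all peaks of that list it was 0.11. The share more than 1.5 times wider was 7.36%, beside 6.86% over all peaks, and the share more than 1.5 times narrower was 2.05%, beside 1.08%. With the 2 controls exchanged the median became -0.05, so the direction depended on which control was the reference. For 7922 peaks chosen in control replicate 1, the ratio of EloB knock-down to control replicate 2 was 0.073 (0.068 to 0.079), with 8.08% wider and 3.17% narrower, beside 6.07% and 1.95% over all peaks. Over all peaks of control replicate 1 the median was 0.048. With the controls exchanged the median after EloB depletion was 0.21. With 1 control list both for the choice and as the reference, the medians were 0.044 and 0.22 after EPOP depletion and 0.16 and 0.34 after EloB depletion, the higher of each with replicate 1.

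The knock-down lists were also set against each other, which involves no list used by the choice. Over 3805 narrow polycomb-free regions with a peak in both, the median width was 779 bp after EPOP depletion and 832 bp after EloB depletion, a median log2 ratio of 0.096 (0.086 to 0.11). Over all H3K4me3 regions it was 0.11. The knock-downs also differed in method, hairpin against small interfering RNA, which cannot be told apart from the depleted protein here. Over all H3K4me3 regions, which have no width limit, the median log2 ratio of control replicate 2 to control replicate 1 was 0.16. At the narrow polycomb-free regions it was 0.11, but there the choice bounded the widths in the controls. With 1 list per knock-down, the ratio between the knock-downs was not tested.

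The next comparison asked whether polycomb proteins or their mark were called at these regions upon knock-down. Suz12 peaks after EPOP depletion lay on 18 of 4768 regions (0.378%, Wilson 95% interval 0.239 to 0.596), beside 1.97% of all polycomb-free H3K4me3 regions. Suz12 peaks after EloB depletion lay on 33 (0.692%, 0.493 to 0.970), beside 0.66%. H3K27me3 peaks after EPOP depletion lay on 41 (0.860%, 0.635 to 1.16), beside 0.476%. No region carried a Jarid2 peak after EPOP depletion, which allows a share of up to 0.0629%, beside 0.16%. Counts at regions that had been chosen to hold no polycomb peak can only be 0 without knock-down, so they were compared below with control lists that were left out of the choice.

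When Suz12 control replicate 2 was left out of the choice, 4791 narrow regions were free of the other 5 lists. Of these, 23 (0.480%, Wilson 95% interval 0.320 to 0.719) had a Suz12 peak in the left-out control and 23 had one after EPOP depletion. After EloB depletion 37 (0.772%) had one. Among 16731 wider regions chosen in the same way the counts were 289 (1.73%) in the left-out control, 524 (3.13%) after EPOP depletion and 147 (0.879%) after EloB depletion. When Suz12 control replicate 1 was left out, 30 of 4798 narrow regions (0.625%) had a peak in it, 30 after EPOP depletion and 59 (1.23%, 0.955 to 1.58) after EloB depletion. Among 16536 wider regions the counts were 94 (0.568%) in the left-out control, 429 (2.59%) after EPOP depletion and 173 (1.05%) after EloB depletion. Per the file headers, Suz12 control replicate 2 belongs to the hairpin method used for EPOP, and replicate 1 to the small interfering RNA method used for EloB. Within a method, narrow regions had equal counts for EPOP depletion and its left-out control, and a higher count after EloB depletion. Wider regions had higher counts after either depletion than in the left-out control of its method. The other 5 lists still removed regions, which can lower control and knock-down counts by different amounts. List lengths differed, with 8491 Suz12 peaks after EPOP depletion beside 7972 in control replicate 2. There were 7168 after EloB depletion beside 6834 in control replicate 1. With lists of equal length, 0.771% of wider polycomb-free regions had a Suz12 peak after EPOP depletion, beside 2.43% with full lists. After EloB depletion the shares were 0.600% and 0.651%. Across methods, the control of the knock-down's own method still removed regions, which can lower the knock-down count. There the narrow counts were also equal for EPOP and higher for EloB, and the wider EloB count was below left-out control replicate 2. With 1 list per knock-down the differences were not tested across samples.

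H3K27me3 and Jarid2 were treated in the same way. With the H3K27me3 control left out, 4824 narrow regions remained, of which 56 (1.16%) had an H3K27me3 peak without knock-down and 56 after EPOP depletion. Among 16645 wider regions the counts were 203 (1.22%) and 91 (0.547%). With the Jarid2 control left out, none of the 4768 narrow regions had a Jarid2 peak in either condition, which allows up to 0.0629%. Among 16484 wider regions 42 had one without knock-down and 60 after EPOP depletion. The plot of polycomb peaks gives these shares with their intervals.

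**Figure D4:**
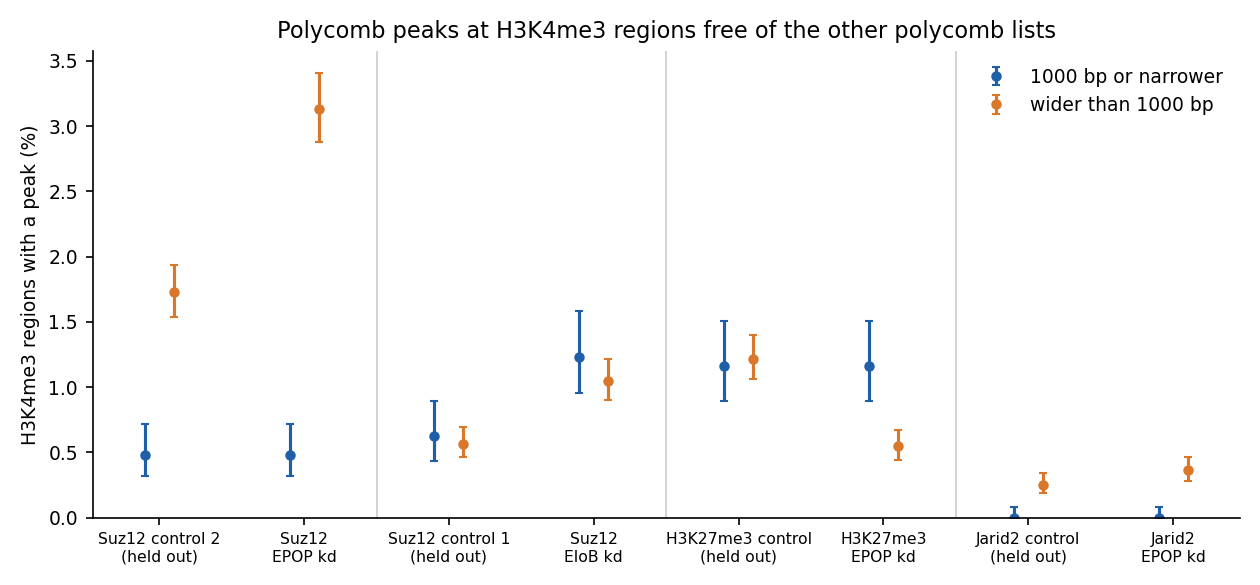
Percentage of H3K4me3 regions with a polycomb peak (y axis), for regions up to 1000 bp and wider ones that were free of all other polycomb lists; each pair of columns gives a control list that was left out of the choice and the knock-down list of the same target, and bars are Wilson 95% intervals over regions. Narrow regions show 0.480% for Suz12 in both conditions of the first pair, and wide regions 1.73% and 3.13%.

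EPOP was examined by leaving out 1 of its control lists at a time, while the other EPOP list and the remaining polycomb lists still removed regions. With EPOP control replicate 1 left out of the choice, 175 of 4943 narrow regions (3.54%, Wilson 95% interval 3.06 to 4.09) had a peak of it, beside 2317 of 18759 wider regions (12.4%). With EPOP control replicate 2 left out the counts were 18 of 4786 (0.376%) and 50 of 16492 (0.303%). Replicate 1 is the longer list, with 11072 peaks beside 6547.

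The knock-down peaks at narrow polycomb-free regions had low scores, and so had those at wider polycomb-free regions. The 18 Suz12 peaks after EPOP depletion had a median score of 59.0 and a highest of 96.7, beside a median of 65.5 at wider polycomb-free regions and 271 over the whole list, which holds the polycomb sites that the choice removed. The 33 Suz12 peaks after EloB depletion had a median of 62.8 and a highest of 142, beside 74.97 at wider polycomb-free regions and 694 over the list. The 41 H3K27me3 peaks had a median of 70.6 and a highest of 378, beside 68.9 and 161. With lists of equal length, from which 3412 narrow regions were chosen anew, 2 (0.0586%) had a Suz12 peak after EPOP depletion, beside 0.771% of wider ones.

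The named examples show how these peaks were distributed. The highest Suz12 score after EPOP depletion, 96.7, lay at chromosome 6, 108515386 to 108516385, a region with H3K4me3 scores of 54.9 and 215 without knock-down, 80.9 after EPOP depletion and 293 after EloB depletion. The highest after EloB depletion, 142, lay at chromosome 16, 91946863 to 91947833, where H3K4me3 scored 52.9 and 107 without knock-down and 88.7 after EloB depletion, with no peak after EPOP depletion. That region also had an H3K27me3 peak after EPOP depletion, with a score of 136. Chromosome 10, 92996805 to 92997749, carried a Suz12 peak in both knock-down lists, with scores of 78.5 upon EPOP and 101 after EloB depletion. The highest H3K27me3 score after EPOP depletion, 378, lay at chromosome 3, 51367970 to 51368881, which was 1021 bp from the nearest polycomb peak without knock-down. The H3K27me3 example was chosen after the values were seen.

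EloB lists were not used by the choice, and EloB peaks were nearly absent. The choice did remove regions with polycomb peaks, where EloB control peaks were more frequent. On narrow polycomb-overlapping regions they lay in 1.78% and 2.75%, beside 0.647% and 1.13% after EPOP depletion. On wide ones it was 9.71% and 12.2%, beside 0.124% and 0.115%. The choice can thus lower control counts more than knock-down counts, which limits the comparison and the test below. No narrow polycomb-free region carried an EloB peak in either list without knock-down, which allows a share of up to 0.0629% in each, beside 0.429% and 0.189% of all polycomb-free H3K4me3 regions and 3.46% and 4.12% of all H3K4me3 regions. Upon EPOP knock-down 2 regions did in replicate 1 and 1 in replicate 2, beside 0.349% and 0.099% of polycomb-free and 0.282% and 0.124% of all H3K4me3 regions. The mean was 0 without knock-down and 1.5 ± 0.707 (SD, n = 2) after EPOP depletion. The difference had p = 0.333 in a two-sided exact permutation test, which cannot give less with 2 lists on each side. With regions taken from H3K4me3 control replicate 2 alone the difference in means was -0.5, so its direction rested on the other control list. The EloB peak at chromosome 1, 162969125 to 162969788, had a score of 415 in knock-down replicate 1, and the other 2 had scores of 55.9 and 51.9. EPOP knock-down lists had 1 region in replicate 1 and 2 in replicate 2, beside 0.0189% and 0.0377%. One of them, chromosome 19, 45724275 to 45724859, had an EPOP peak in both, with scores of 118 and 55.3, and an H3K27me3 peak after EPOP depletion with a score of 57.7. Over the 10 lists of EPOP, EloB, Suz12, Jarid2 and H3K27me3 that the choice did not use, 89 narrow regions (1.87%) had any peak, beside 3.96% of wider polycomb-free regions.

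The narrow polycomb-free regions had a higher median distance to the next H3K4me3 region than the other 3 classes. Position was not used to choose them, except that peaks touching each other were merged. Their median distance to the next H3K4me3 region was 17370 bp, beside 6623 bp for wider polycomb-free regions, 7188 bp for narrow and 10861 bp for wide polycomb-overlapping regions, and 8819 bp for all. With regions of control replicate 2 alone the median was 8378 bp for narrow and 4044 bp for wider polycomb-free regions, and with those of replicate 1 alone 10130 and 5506 bp. Up to a width of 500 bp the median was 80675 bp (364 regions). Within 200 bp of another region lay 4.76% of them, beside 6.90% of wider polycomb-free and 3.46% of wide polycomb-overlapping regions, so the order of the medians did not hold at short distances. Within 1000 bp the shares were 9.82%, 16.4% and 10.1%. The nearest region wider than 1000 bp was a median of 23281 bp away, and the next narrow polycomb-free region 119839 bp. The nearest polycomb peak was a median of 53276 bp away, beside 35613 bp for wider polycomb-free regions.

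**Figure D5:**
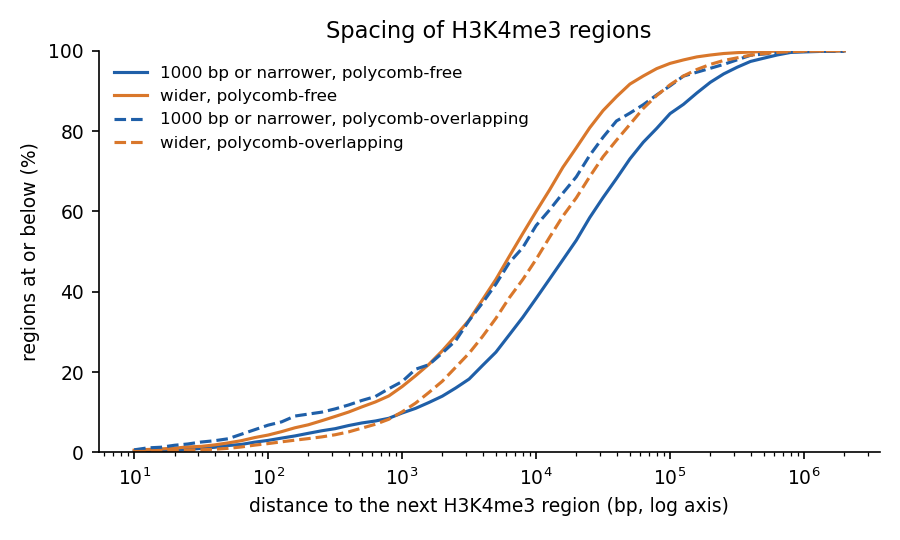
Cumulative percentage of H3K4me3 regions (y axis) by distance to the next H3K4me3 region in bp (x axis, log scale), for the 4 classes by width and polycomb overlap. The curve of narrow polycomb-free regions lies to the right of the others above about 1000 bp, with a median of 17370 bp.

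Read the other way, the most isolated H3K4me3 regions were often narrow and polycomb-free. They made up 10.8% of the 4327 regions with a neighbour closer than 1000 bp, 10.7% of those at 1000 to 10000 bp, 16.9% of those at 10000 to 100000 bp and 33.9% of the 2201 regions farther away. The 746 isolated ones had a median lower score of 78.4, beside 86.8, 78.8 and 81.4 in the 3 nearer bins from the closest on. After EPOP depletion 69.3% of them had a peak, beside 84.2%, 89.3% and 82.1% in the 3 nearer bins from the closest on. The share did not simply fall with distance, since it was higher at 1000 to 10000 bp than below 1000 bp. After EloB depletion the shares were 91.2% beside 93.6%, 97.4% and 94.6%. Over all H3K4me3 regions farther than 100000 bp from the next, 88.0% had a peak after EPOP depletion, beside 96.002%, 97.7% and 96.1%, and 96.8% after EloB depletion, beside 98.9%, 99.5% and 98.9%. The shares over all regions include the narrow polycomb-free ones. Of wider polycomb-free regions farther than 100000 bp from the next, 96.3% had a peak after EPOP depletion, beside 97.2%, 98.3% and 98.4%. After EloB depletion these wider regions had 99.4%, beside 99.6% in each nearer bin. All these shares rest on 1 list per knock-down and were not tested across samples.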

How the data were processed

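The 20 ChIP samples with a peak list were analysed; 9 RNA samples and 1 IgG sample were not analysed here. The submitters' processing notes name Bowtie, TopHat, Cufflinks and build mm9, with no role or version. No source used here states which peak caller was run, though peaks have MACS in their names per the file headers. Each list gives a chromosome, start, end and score per peak; the score is the deposited value of the authors, at least 50 in every list, and no source used here defines it. Read depth is unknown, and it affects how many peaks a list holds.

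Groups and replicate numbers came from the sample titles, and the control method of H3K4me3 and Suz12 from the file headers. Same-numbered EloB replicates share their antibody per the labels. Regions, classes and overlaps (at least 1 bp) were computed as stated with the results, and distances run between region ends. Width is the summed width of the peaks that overlap a region. Shares carry Wilson 95% intervals, and medians an exact order-statistic interval; both cover counting of regions only. A count of 0 at the 4768 narrow polycomb-free regions is given with the limit of 3 counts. Named regions were the highest-scoring ones of each kind by a fixed rule: 5 by lower H3K4me3 score, and 3 each for missing regions and for Suz12 upon knock-down, of which some are printed. The rule found no region with an EloB peak in both lists without knock-down; the EloB and EPOP examples in depleted cells were chosen after their values were seen.

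The regions, classes and lists were chosen with earlier results of these data known. Alternatives were scores of at least 100, overlap of 0.5 of the shorter interval, lists of equal length, a width limit of 500 bp, no polycomb peak within 1000 bp, and each replicate left out. Added after the data were seen were exchanged control lists for the widths, regions at least 1000 bp from the next one, the peaks of 1 list cut to equal length, and the bins by score, width and distance. Python 3.11.15, NumPy 2.4.6, SciPy 1.17.1 and Matplotlib 3.10.9 were used; overlaps equalled those of bedtools 2.31.1 in 20 of 20 lists and were tested on simulated data. No mm9 genome or gene annotation was used here, so regions carry no gene names or sequences, and the gene lists planned for promoters were not tested.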

Additional observations from a re-analysis of the deposited data

How the results depend on the processing

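Of 76 values under alternatives, 45 were rated the same as the reported ones, 29 moved and 2 changed direction. The first group includes EloB differences of 0.5 regions beside the reported 1.5, so that rating does not always mean a close value. Regions with a peak after EPOP depletion (82.4%) were 77.6% with lists of equal length, 59.3% with a width limit of 500 bp and 59.6% to 83.0% with 1 control list left out. Upon EloB knock-down (94.7%) they were 95.9% with scores of at least 100, 80.3% with equal length, 85.2% with the 500 bp limit and 83.8% to 92.9% with 1 control list left out. Suz12 after EPOP depletion was 0.0586% with equal length, and after EloB depletion 0.275% with the 500 bp limit, which is 1 of 364 regions. H3K27me3 after EPOP depletion was 0.623% with scores of at least 100, 0.629% with the stricter overlap and 0% with the 500 bp limit. That 0% is 0 of 364 regions, with a Wilson upper limit of 1.04%, above the reported 0.860%. The width ratio after EPOP depletion (log2, 0.12) was 0.084 with scores of at least 100, 0.13 with equal length, 0.023 with the 500 bp limit, 0.044 to 0.22 with 1 control list left out and -0.049 with the controls exchanged. Upon EloB knock-down (0.073) it was 0.054, 0.032 with the 500 bp limit, 0.16 to 0.34, and 0.21 exchanged. The median distance (17370 bp) was 22479 bp with scores of at least 100, 80675 bp with the 500 bp limit, 8378 to 10130 bp with 1 control list left out and 21813 bp without regions under 1000 bp apart. That last setting drops the shortest distances, so it could only raise the median. The EloB difference (1.5 regions, knock-down minus control) was 0 with the 500 bp limit and ran from -0.5, without H3K4me3 control replicate 1, to 2. With the replicate block, which pairs lists of the same antibody, it was 1.5 with a sign-flip p of 0.5 in an exact permutation, the smallest that 2 pairs allow. The causes were not tested. The number of regions behind the shares also differed, from 364 with the 500 bp limit to 12027 without H3K4me3 control replicate 1. Lists of unknown depth limit every share, since a region without a peak may still hold signal.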

Other observations

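The narrow polycomb-free regions lay on all 19 autosomes and on X and Y. Their share of the H3K4me3 regions of a chromosome ran from 10.4% on chromosome 11 to 18.3% on chromosome 3, leaving out Y, which had 5 H3K4me3 regions in all. Per megabase up to the last peak there were 0.691 on X and 2.25 on chromosome 4, while wider polycomb-free regions ran from 2.66 on X to 10.6 on chromosome 11. Chromosome 11 had the densest H3K4me3 regions, 20.7 per megabase, and chromosome X the sparsest, 4.56. Over the 20 chromosomes the density of all H3K4me3 regions and the share of narrow polycomb-free ones had a Pearson correlation of -0.76 and a Spearman correlation of -0.80, and of -0.84 and -0.84 without X and 11. Both quantities come from the same regions, so this is a description only.

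Some narrow polycomb-free regions lay close together although the median distance between them was over 100000 bp. On chromosome 11, 101459154 to 101520916 (mm9), 6 of 8 H3K4me3 regions were of this class, with lower scores between 69.4 and 136, and all 6 had a peak after EPOP depletion and 5 after EloB depletion. On chromosome 4, 146561514 to 146650036, all 5 H3K4me3 regions were narrow and polycomb-free, with lower scores between 73.8 and 361, and all 5 had a peak upon either knock-down. On chromosome 10, 126996690 to 127038094, 5 of 6 regions were of this class, and these too had a peak in both knock-down lists. These stretches were found by searching for the densest 100000 bp and were chosen after their values were seen.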
